A study of Homo sapiens with 6 samples.

Results

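The genes described are 9 regulators of cyclin-dependent kinase 2 (CDK2): the cyclin E genes CCNE1 and CCNE2, the cyclin A gene CCNA2, CDK2 itself, the phosphatase genes CDC25A, CDC25B and CDC25C, and the inhibitory kinase genes WEE1 and PKMYT1. They were chosen by symbol, through the Ensembl identifier of each row, and all 9 were found among 60656 genes in the table. RNA was measured in ZR-75-1 cells, an established oestrogen receptor-positive human breast cancer line, all labelled parental and grown with DMSO (3 libraries) or with 500 nM abemaciclib, an inhibitor of CDK4 and CDK6 (3 libraries), each for 4 days in the same medium. The labels only number the replicates, while the methods of the study describe its cell line RNA-seq as run on independent biological replicates.

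Entry into S phase is driven by a chain of kinases. Cyclin D with CDK4 or CDK6, and then cyclin E with CDK2, phosphorylates the retinoblastoma protein (Rb), which releases E2F transcription factors, and these in turn switch on the genes for cyclin E, cyclin A and CDC25A. Cyclin A takes over CDK2 in S phase. CDK2 is held inactive when WEE1 (nuclear) and PKMYT1 (bound to membranes, acting mainly on CDK1) phosphorylate residues in the ATP-binding pocket, and CDC25 phosphatases remove those phosphates. Genes with a cell cycle-dependent promoter often carry an E2F site or a cell cycle genes homology region (CHR). The CHR is the element bound by the DREAM and MuvB complexes. DREAM holds genes of late S phase, G2 and mitosis silent in resting cells.

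Because several of these genes are known for control at the promoter, the sequence before the start of 3 members is shown first: CCNE1 and CCNA2, which lay near opposite ends of the range of change described below, and CDC25A, whose window holds an E2F match. RefSeq windows (GRCh38.p14) were at hand for 5 members, and each had one that began at the canonical start of GENCODE. The other 4, CCNE2, CDK2, WEE1 and PKMYT1, were not matched. Each line gives the 250 bases before the start, 5′ to 3′ on the strand of the gene. The CCNE1 window is chr19:29811741-29811990 on the plus strand, that of CCNA2 is chr4:121823884-121824133 on the minus strand and that of CDC25A is chr3:48188418-48188667 on the minus strand. Capitals mark matches on either strand to an E2F core, a CHR or a CCAAT box. The E2F core was searched as TTCCCGC, then as TTCGCGC, then as TTGCCGC and last as TTGGCGC. The CHR was searched as TTTGAA, then as CTTGAA, then as TTCGAA and last as TTTAAA, and the CCAAT box by the letters of its name.
CCNE1: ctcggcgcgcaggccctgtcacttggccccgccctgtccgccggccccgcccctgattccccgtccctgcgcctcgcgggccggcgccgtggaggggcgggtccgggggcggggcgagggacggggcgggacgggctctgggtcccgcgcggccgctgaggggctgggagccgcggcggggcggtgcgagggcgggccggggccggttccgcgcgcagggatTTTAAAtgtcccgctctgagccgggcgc
CCNA2: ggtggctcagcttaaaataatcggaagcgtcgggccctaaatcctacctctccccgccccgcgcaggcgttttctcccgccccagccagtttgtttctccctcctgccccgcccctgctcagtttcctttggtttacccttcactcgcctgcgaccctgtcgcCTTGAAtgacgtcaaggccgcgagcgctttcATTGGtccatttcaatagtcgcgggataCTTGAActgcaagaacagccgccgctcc
CDC25A: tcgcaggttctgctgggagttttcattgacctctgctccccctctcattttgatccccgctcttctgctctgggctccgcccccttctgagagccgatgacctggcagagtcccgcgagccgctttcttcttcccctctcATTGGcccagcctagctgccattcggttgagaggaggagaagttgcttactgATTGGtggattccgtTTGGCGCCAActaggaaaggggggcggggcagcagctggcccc

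In the CDC25A window, 2 overlapping E2F matches on opposite strands, both TTGGCGC, lay between 43 and 34 bases before the start, with CCAAT boxes upstream. The CCNA2 window held no E2F match by these letters, and its CHR match CTTGAA nearest the start lay 28 to 23 bases before it, with a CCAAT box on the opposite strand 56 to 52 bases before it. The CCNE1 window held no E2F match by these letters either, and other spellings of an E2F site were not searched. Its single match was the CHR spelling TTTAAA at 28 to 23 bases, which reads the same on both strands. For CDC25B and CDC25C, 30 bases around the CHR match at the canonical start show the element in its surroundings.
CDC25B: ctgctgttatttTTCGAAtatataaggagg
CDC25C: gctggcggaaggTTTGAAtggtcaacgcct

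These stretches are chr20:3796260-3796289 on the plus strand and chr5:138331817-138331846 on the minus strand, and their CHR matches, in capitals, begin 38 and 30 bases before the start. Both canonical windows also held a CCAAT box on the opposite strand, beginning 73 bases before the start in CDC25B and 85 in CDC25C. CDC25B and CDC25C each have further annotated starts. The E2F match TTCCCGC lay in windows at further starts of both genes, but not in their canonical windows. A CHR match stood in 29.1% of all 34943 RefSeq windows of this length, an E2F match in 10.8% and a CCAAT box in 32.0%, so a match alone is a description of the letters and not of a bound site.

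Library totals ran from 3317860 to 4013156 counts, and 10863 genes had enough counts to be tested, all 9 members among them. Levels are given as CPM, the usual depth-scaled counts, here with TMM scaling. In these 3′ mRNA libraries each transcript yields about 1 tag at its end whatever its length, so CPM was used without division by length when levels of different genes were set side by side. At a count of 0 the level could still be up to 0.740 to 0.909 CPM (3 counts, counting error alone). Luminal identity was checked on 7 markers (ESR1, GATA3, FOXA1, KRT8, KRT18, KRT19 and EPCAM), whose summed level was 6661 to 7275 CPM with DMSO and 7563 to 8640 CPM with abemaciclib, while KRT5, KRT14, PTPRC, CD3E, PECAM1, COL1A2 and PDGFRB were at 0 in all 6 libraries. The luminal sum was higher in all treated libraries through KRT19 (2957 to 3400 CPM with DMSO, 3905 to 4604 CPM with abemaciclib) and ESR1 (191 to 225 CPM and 340 to 395 CPM). KRT18 was lower without overlap (658 to 727 CPM and 510 to 574 CPM), and the other 4 markers overlapped between groups. The part of these shifts in the results below was not tested. COL1A1 stood at 10.1 to 15.8 CPM over both groups, and CD68 and VWF were at most 1.51 CPM.

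With abemaciclib, 8 of the 9 genes fell and 0 rose at an adjusted P under 0.05 (edgeR's quasi-likelihood test, Benjamini–Hochberg over all genes tested, as for every adjusted P below; 0 rose at an unadjusted P under 0.05, and DESeq2 gave the same 8 lower and 0 higher). Over all genes tested, 13.3% were lower and 12.5% higher. The members were chosen with earlier results of these data known. The median log2 fold change was −1.95 over the members and −0.0018 over all genes tested. In 8 members every abemaciclib library lay below every DMSO library, which held for 20.1% of all genes tested. CCNE2 and CCNA2 fell most, to a few counts per library, the CDC25 genes and PKMYT1 fell to between 22.8% and 30% of the DMSO mean, WEE1 and CDK2 fell less, and CCNE1 did not pass the test. These are bulk RNA values, in which fewer cells in a phase of the cycle and less RNA per cell cannot be told apart.

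**Figure D1:**
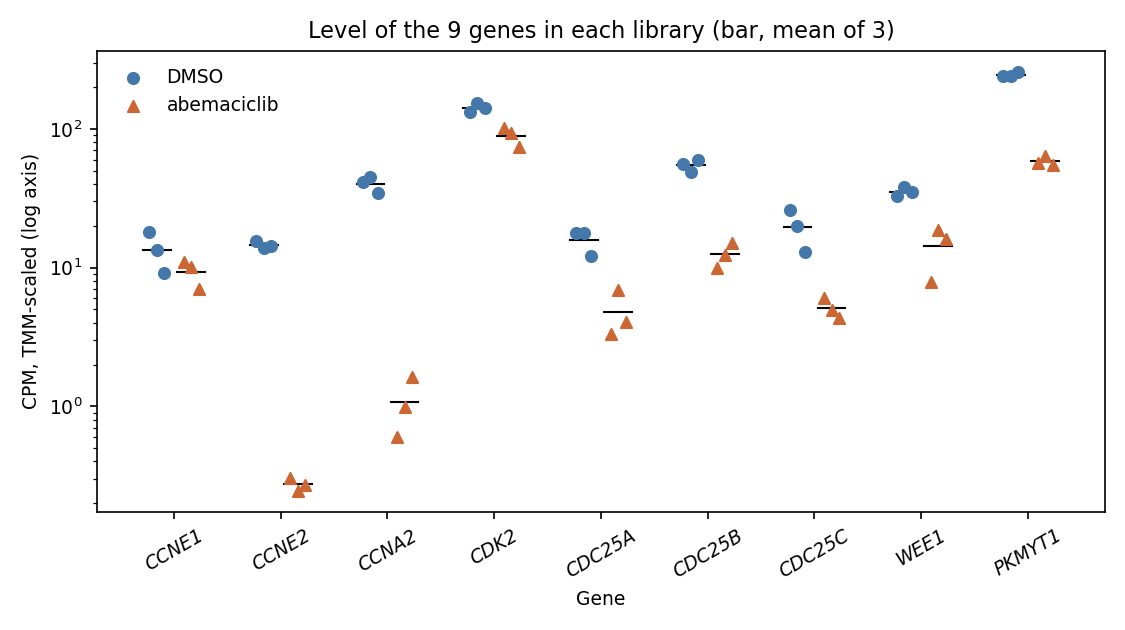
Level of each of the 9 genes in CPM (log axis) in the 3 DMSO libraries (circles) and the 3 abemaciclib libraries (triangles), with bars at the group means. The groups overlap only for CCNE1; CCNE2 and CCNA2 drop to 1.62 CPM or less with abemaciclib.

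Cyclin E genes encode closely related partners of CDK2 and are both textbook E2F targets, and their levels with abemaciclib were far apart. CCNE1 (ENSG00000105173, chromosome 19 of GRCh38 from 29811991 to 29824312) had 17.98, 13.4 and 9.09 CPM in DMSO replicates 1, 2 and 3 and 10.9, 10.1 and 7.03 CPM in the abemaciclib replicates. Its groups overlapped, with the third DMSO library below the first and second abemaciclib libraries. The change came to −0.53 ± 0.31 on the log2 scale (estimate ± SE, as below), with a 95% interval from −1.17 to 0.11. Its adjusted P was 0.229 in edgeR. Each SE was taken as the size of the change over the square root of the test's F statistic, and the intervals follow from it. The ratio of summed counts, 137 against 103, was 1.45 after scaling, and its counting interval from 1.12 to 1.90 (exact, 95%) left out 1, whereas the spread between libraries was wide, with a coefficient of variation of 33.0% over the DMSO libraries. Of 1068 genes with a mean level within 20% of that of CCNE1, 211 were called, and the smallest change called among them was 0.72 in size on the log2 scale.

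CCNE2 (ENSG00000175305, chromosome 8 from 94879770 to 94896678) had 54, 47 and 47 counts in the DMSO libraries, or 15.7, 13.96 and 14.2 CPM. In each of the 3 abemaciclib libraries a single count remained. The ratio of summed counts, 148 against 3, came to 53.9 after scaling, with a 95% counting interval from 18.1 to 265 (exact conditional binomial). The fitted log2 fold change was −5.58 ± 0.55 (adjusted P = 6.52e-09), the 11th lowest of all genes tested, and its size depends on the prior count. DESeq2 gave −5.74 with a larger SE of 0.93, so the smaller SE may understate the error. The DMSO values varied little, with an SD of 0.913 CPM around 14.6 CPM (n = 3), against 4.45 CPM around 13.5 CPM for CCNE1.

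The ratio of CCNE2 to CCNE1 counts within a library does not depend on scaling. On the log2 scale it was −0.20, 0.06 and 0.65 in the DMSO libraries, that is, near parity, and −5.17, −5.36 and −4.70 with abemaciclib. The difference between the group means was −5.25, and the groups did not overlap (exact permutation test over libraries, two-sided, P = 0.1, the smallest that 3 against 3 allow). As a share of all cyclin E counts, CCNE2 made up 52.9% ± 7.41 of them under DMSO and 2.93% ± 0.690 under abemaciclib (mean ± SD of 3 libraries). The abemaciclib shares rest on 27 to 42 cyclin E counts each, of which 1 was CCNE2, so their SD reflects the CCNE1 counts alone. The highest share, 3.70%, had an exact 95% binomial interval from 0.0937% to 19.0%. What cyclin E mRNA was left in the treated libraries was thus almost wholly CCNE1.

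**Figure D2:**
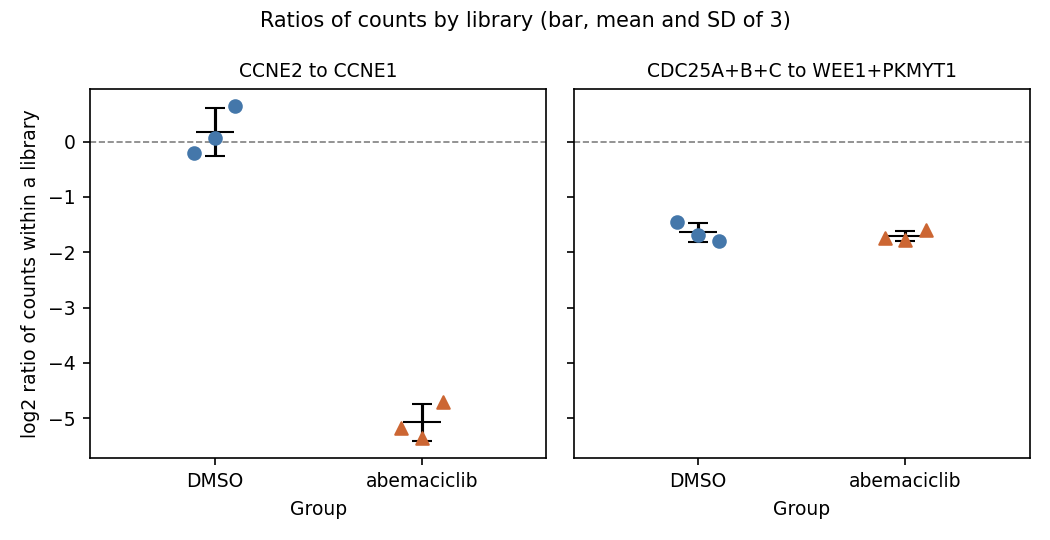
Log2 ratio of counts within each library, CCNE2 to CCNE1 on the left and the 3 summed CDC25 genes to the summed WEE1 and PKMYT1 on the right, for DMSO (circles) and abemaciclib (triangles), with the mean and SD of 3 libraries. The first ratio drops from a mean of 0.17 to −5.08, while the second is −1.64 with DMSO and −1.71 with abemaciclib, and its groups overlap. With abemaciclib CCNE2 had 1 count per library, so the SD of the first ratio there reflects CCNE1 alone.

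CCNA2 (ENSG00000145386, chromosome 4 from 121816444 to 121823883) encodes cyclin A2, which drives CDK2 through S phase and CDK1 into mitosis. It had 41.2, 44.9 and 34.5 CPM with DMSO and 0.605, 0.987 and 1.62 CPM with abemaciclib, the latter from 2, 4 and 6 counts. All 3 treated libraries were at 4.03% of the DMSO mean or below. With 407 against 12 summed counts, the scaled ratio was 37.1 with a 95% counting interval from 21.0 to 72.4. The log2 fold change was the 17th lowest of the genes tested (−5.17 ± 0.33). Here too DESeq2 gave a larger SE, 0.49 around −5.21, as it did for every other member. The germline paralogue CCNA1 was at 0 with DMSO and had 2 counts in all with abemaciclib, too few for a test.

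CDK2 (ENSG00000123374, chromosome 12 from 55966781 to 55972789) moved least among the genes that fell. Its levels were 133, 153 and 141 CPM with DMSO and 101, 93.5 and 73.8 CPM with abemaciclib, so the treated libraries kept 51.8% to 70.7% of the DMSO mean. The groups did not overlap, and the gene changed by −0.67 ± 0.12 on the log2 scale (adjusted P = 0.000119). CDK1, the mitotic kinase that cyclin A also binds, fell by 3.34 on the log2 scale in the same fit, from 106 ± 3.95 CPM to 10.5 ± 1.599 CPM (mean ± SD of 3 libraries).

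The 3 CDC25 phosphatases act at different points of the cycle: CDC25A at entry into S phase and beyond, CDC25B and CDC25C at entry into mitosis. CDC25A (ENSG00000164045, chromosome 3 from 48157146 to 48188417) had 17.7, 17.8 and 12.1 CPM with DMSO and 3.33, 6.91 and 4.05 CPM with abemaciclib. The second treated library stood highest, at 43.5% of the DMSO mean, against 21.0% and 25.5% in the other two. On the log2 scale it changed by −1.71 ± 0.34 (adjusted P = 0.000353).

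CDC25B (ENSG00000101224, chromosome 20 from 3786772 to 3806121) was the most abundant of the family, at 56.3, 48.7 and 59.4 CPM with DMSO and 9.98, 12.3 and 15.1 CPM with abemaciclib. It had the largest log2 fold change of the 3, −2.12 ± 0.20 (adjusted P = 1.68e-09). CDC25C (ENSG00000158402, chromosome 5 from 138285269 to 138338355) had 26.1, 19.9 and 13.02 CPM with DMSO and 6.05, 4.93 and 4.32 CPM with abemaciclib. The DMSO libraries spread widely, with the third lowest, yet all 3 stayed above the treated ones, and the log2 fold change was −1.95 ± 0.32 (adjusted P = 2.97e-05).

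The 95% intervals of the 3 CDC25 changes overlapped, and no test was made between them: they were −2.41 to −1.01 for CDC25A, −2.53 to −1.72 for CDC25B and −2.60 to −1.29 for CDC25C. For each share of the family's counts the groups overlapped. CDC25B made up 60.9% ± 8.06 of CDC25 counts with DMSO and 55.7% ± 7.55 with abemaciclib, CDC25A 17.5% ± 3.14 and 21.0% ± 6.56, and CDC25C 21.5% ± 5.50 and 23.3% ± 6.92 (mean ± SD of 3 libraries).

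The kinases that oppose CDC25 fell as well. PKMYT1 (ENSG00000127564, chromosome 16 from 2968024 to 2980479) was the most abundant member with DMSO, at 239.9, 240.3 and 259 CPM, and had 56.9, 63.9 and 55.1 CPM with abemaciclib. Libraries of a group differed little, with SDs of 10.7 and 4.65 CPM, and the log2 fold change of −2.07 ± 0.11 had the smallest SE of the 9 genes (adjusted P = 1.72e-14). WEE1 (ENSG00000166483, chromosome 11 from 9573670 to 9593457) had 33.1, 38.0 and 34.8 CPM with DMSO and 7.87, 18.8 and 16.2 CPM with abemaciclib. The first treated library stood lowest, at 22.3% of the DMSO mean against 53.1% and 45.9%, and the gene changed by −1.29 ± 0.24 on the log2 scale (adjusted P = 0.000138), or −1.01 without that library (adjusted P = 0.00104). Its 2 annotated pseudogenes had 0 counts in all libraries.

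PKMYT1 made up 87.5% ± 0.972 of the counts of both kinases with DMSO (SD, n = 3). With abemaciclib its share was 87.9%, 77.3% and 77.3%, so 2 libraries lay below the DMSO range and 1 within it. Phosphatase and kinase mRNA were also set against each other. The log2 ratio of the 3 summed CDC25 genes to the 2 summed kinases was −1.45, −1.69 and −1.80 with DMSO and −1.74, −1.77 and −1.60 with abemaciclib. The groups overlapped, and the difference was −0.06 (exact permutation test, two-sided, P = 0.7), and it lay between −0.14 and 0.04 when each library was left out in turn.

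**Figure D3:**
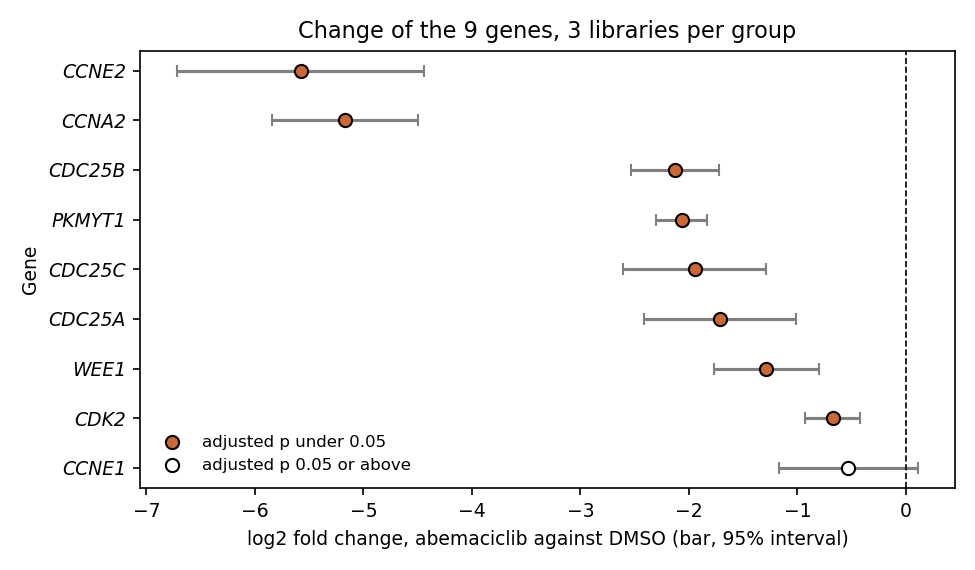
Log2 fold change of each gene, abemaciclib against DMSO, with its 95% interval (3 libraries per group); filled points had an adjusted P under 0.05 in edgeR's test. The interval of CCNE1 (−1.17 to 0.11) crosses 0, and those of CCNE2 and CCNA2 lie apart from all others. Intervals rest on an SE derived from the test's F statistic, and DESeq2 gave a larger SE for every gene shown.

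The order of levels changed with these falls. With DMSO it ran PKMYT1, CDK2, CDC25B, CCNA2, WEE1, CDC25C, CDC25A, CCNE2 and CCNE1, from a mean of 246 CPM down to 13.5 CPM. Neighbours whose ranges overlapped were CCNA2 and WEE1, and each step from CDC25C down to CCNE1. With abemaciclib CDK2 came first at 89.3 CPM, ahead of PKMYT1 at 58.6 CPM in all 3 libraries, followed by WEE1, CDC25B, CCNE1, CDC25C, CDC25A, CCNA2 and CCNE2, the last at 0.273 CPM. There the ranges overlapped between WEE1 and CDC25B, between CDC25B and CCNE1, and between CDC25C and CDC25A. The place of CCNA2 above CCNE2 rests on 2, 4 and 6 counts against 1 count in each library, too few to settle their order. CCNE1, the lowest with DMSO, thus stood above CDC25A, CDC25C, CCNA2 and CCNE2 in the treated cells.

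The library with the lowest level differed between members, and with 3 libraries per group some members must share one. In the DMSO group it was replicate 3 for CCNE1, CCNA2, CDC25A and CDC25C. It was replicate 1 for CDK2, WEE1 and PKMYT1, and replicate 2 for CCNE2 and CDC25B. In the abemaciclib group it was replicate 1 for CCNA2, CDC25A, CDC25B and WEE1. It was replicate 3 for CCNE1, CDK2, CDC25C and PKMYT1, and replicate 2 for CCNE2, which had 1 count in each treated library. Without any 1 of these libraries 8 members were lower.

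For CCNA2, CCNE2 and PKMYT1 an exon of another gene on the opposite strand lies within the last 500 bases, and the sources used here do not state whether reads were counted by strand, so these counts are uncertain. The changes of the partner genes were smaller. EXOSC9, across from CCNA2, had 31.0, 24.1 and 31.5 CPM with DMSO and 15.4, 23.4 and 28.4 CPM with abemaciclib (log2 fold change −0.36, adjusted P = 0.25). INTS8, across from CCNE2, had 6.54 to 7.57 CPM with DMSO and 3.45 to 5.75 CPM with abemaciclib, without overlap (log2 fold change −0.65, adjusted P = 0.281). PAQR4, across from PKMYT1, was lower (log2 fold change −0.40, adjusted P = 0.0116), going from 204 ± 29.5 CPM to 155 ± 18 CPM (mean ± SD of 3 libraries).

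Genes around CDK2 were described through a list of 56 (activating kinase, Cks subunits, other cyclins, inhibitors, ubiquitin ligases, checkpoint kinases, 14-3-3 proteins, mitotic activators, substrates and E2F factors), of which 53 were tested. With abemaciclib 28 were lower and 6 higher, or 52.8% and 11.3% of those tested, against the 13.3% and 12.5% over all genes, and the median log2 fold change was −0.54. The list was chosen with earlier results of these data known, so these shares are a description only. Genes of the list with a change under 1 in size, other than CDKN1B, FBXW7 and RB1, are named after their values were seen.

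**Figure D4:**
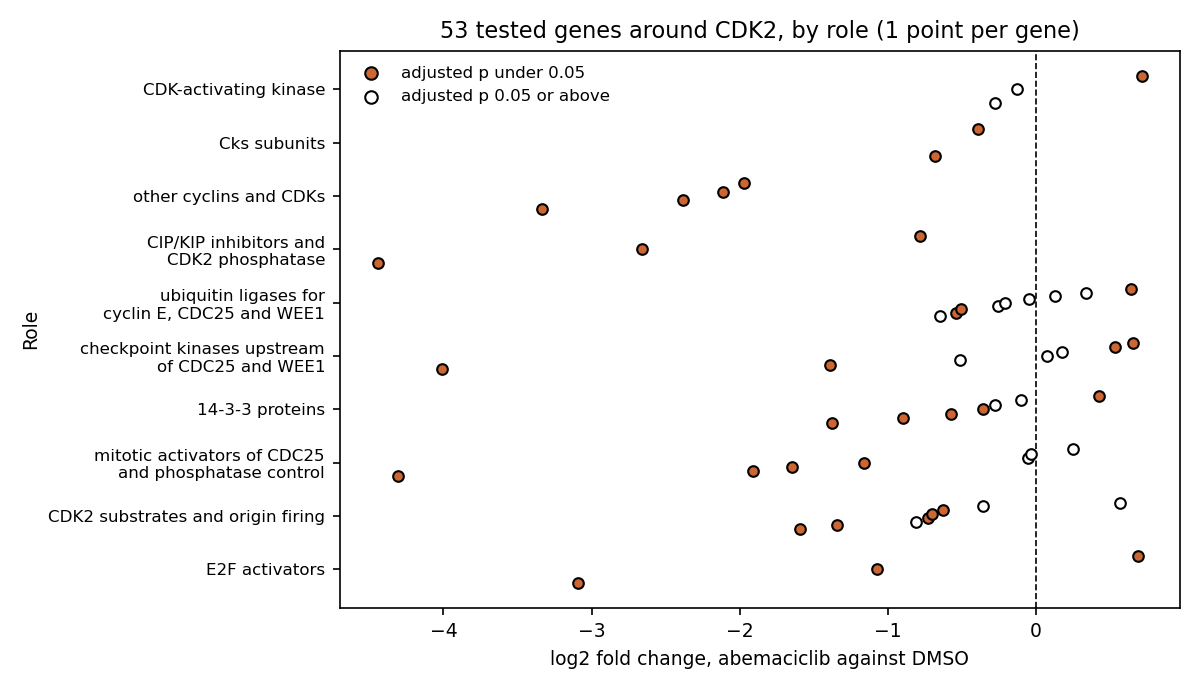
Log2 fold change, abemaciclib against DMSO, of the 53 tested genes around CDK2, 1 point per gene, grouped by role; filled points had an adjusted P under 0.05. Other cyclins and CDKs, Cks subunits and CDK inhibitors lie wholly below 0, while checkpoint kinases, 14-3-3 proteins and ubiquitin ligases lie on both sides.

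Among other cyclins and CDKs 4 of 4 tested were lower: CCNB1 and CCNB2, which drive mitosis with CDK1, fell by 2.11 and 2.38 on the log2 scale, and CCNF, the F-box cyclin, fell by 1.97. CDK3 was at 0 in all libraries. Both Cks subunits, small proteins that dock substrates to cyclin–CDK complexes, were lower, with CKS1B at −0.39 and CKS2 at −0.68. CDKN1A, which encodes the CDK inhibitor p21, fell from 152 ± 10.3 CPM to 23.9 ± 4.49 CPM (mean ± SD of 3 libraries). This was −2.66 on the log2 scale, with an adjusted P of 1.66e-14. CDKN1B, which encodes p27, fell by 0.79, from 75.3 ± 8.15 CPM to 43.6 ± 5.03 CPM. CDKN1C, which encodes p57, had 30 summed counts with DMSO and 8 with abemaciclib and was not tested. CDKN3, a phosphatase that removes the activating phosphate of CDK2, fell by 4.44 on the log2 scale, from 36.4 ± 6.43 CPM to 1.72 ± 1.45 CPM. Of the CDK-activating kinase, CDK7 rose (log2 fold change 0.71, adjusted P = 0.0179), a call lost under 4 of 12 alternatives, DESeq2 among them, at an adjusted P of 0.0512 to 0.0699, while CCNH and MNAT1 had values of −0.13 and −0.28 and did not pass the test.

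Upstream of CDC25 and WEE1 the genes split. CLSPN, the adaptor that lets ATR activate CHK1, had a log2 fold change of −4.01, and CHEK1, which encodes CHK1, of −1.39 (adjusted P = 0.000647). CHEK2 rose by 0.66 (adjusted P = 0.039), a call lost under 7 of 12 alternatives at an adjusted P of 0.0519 to 0.188. MAPKAPK2 rose by 0.53, and ATR, ATM and TOPBP1 did not pass the test. Of the genes that switch CDC25 on at mitosis or belong to the control of the phosphatase PP2A-B55, PLK1 fell from 164 ± 21.5 CPM to 8.30 ± 2.45 CPM (log2 fold change −4.31), and AURKA, BORA and MASTL fell by 1.64, 1.91 and 1.16. ENSA, ARPP19 and PPP2R2D did not pass, with values from −0.06 to 0.25. Among 7 genes for 14-3-3 proteins, which hold phosphorylated CDC25 in the cytoplasm, 4 were lower, led by SFN at −1.37. Of these, YWHAE, whose groups overlapped, and YWHAQ lost their calls under 4 and 3 of 12 alternatives. YWHAG was higher at 0.43. BORA shares its end with DIS3 on the opposite strand, so its counts carry the same doubt about strand as above.

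FBXW7, the F-box protein that marks cyclin E for destruction, had 106 ± 11.97 CPM with DMSO and 116 ± 14.1 CPM with abemaciclib (log2 fold change 0.13, adjusted P = 0.498). In the ligase group SKP1 rose by 0.64, RBX1 and SKP2 fell by 0.51 and 0.54, and the other 6 did not pass. The SKP2 call (adjusted P = 0.0337) was lost under 6 of 12 alternatives, DESeq2 among them, at an adjusted P of 0.0517 to 0.198. Among substrates and origin firing genes, 5 of 8 were lower, and of these NPAT lost its call under 5 of 12 alternatives, DESeq2 among them. CDT1, a licensing factor, had a log2 fold change of −1.59. RB1 itself fell from 56.2 ± 7.32 CPM to 33.9 ± 2.24 CPM (log2 fold change −0.73, adjusted P = 0.00104), and RBL1, which encodes the Rb relative p107, fell by 1.34, a call lost without DMSO replicate 3 (−1.03, adjusted P = 0.0925). E2F1 and E2F2, activators of cyclin E genes, fell by 1.07 and 3.09, and E2F3 rose by 0.69 (adjusted P = 0.00613), a call likewise lost without that library (0.48, adjusted P = 0.0576). RBL2, another relative of Rb, had a value of 0.57 and did not pass the test (adjusted P = 0.0579). Each of its treated libraries lay above every DMSO library, which held for 19.1% of all genes tested.

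Patterns across the 6 libraries were compared for a cyclin of each type, as a description. Of 9730 other genes with a mean of at least 5 CPM, those closest to CCNE2 on log2(CPM + 1) were TPX2, UBALD2 and TMPO, each with a Pearson correlation of 1.00 to 2 decimals, and 101 genes reached 0.99. TPX2, a spindle assembly factor, had a log2 fold change of −2.53, and TMPO, which encodes the nuclear lamina protein LAP2, of −1.77. Among the closest to CCNA2 were KIF15 and HMGN2, and 76 genes reached 0.99. KIF15, a mitotic kinesin, had a log2 fold change of −2.35. The points of each correlation are the same 6 libraries in 2 groups. Values near 1 thus mainly carry the difference between the groups, and shared control of these genes was not tested.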

How the data were processed

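ZR-75-1 RNA was prepared by the authors as QuantSeq 3′ mRNA libraries, aligned to GRCh38 and deposited as raw counts per Ensembl gene; the submitters' processing notes name STAR 2.7.5b and featureCounts 2.0.1. The strand setting is not given in the sources used here, and no molecular identifiers are described, so intervals and floors cover counting error only. Identifiers were matched to symbols for 60401 of 60656 genes, and 40227 genes had 0 counts in all 6 libraries. Library totals were 3317860 to 4013156 counts, and the biological coefficient of variation was 13.2%.

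Low genes were removed with filterByExpr and counts were scaled by TMM. Groups, taken from the labels, were compared in edgeR 4.0.16 (R 4.3.3) by the quasi-likelihood test. P values were adjusted over 10863 genes (Benjamini–Hochberg), with a threshold of 0.05. The script was tested on simulated data. Ratios of counts were compared by exact permutation over libraries. Alternatives were DESeq2 1.42.0, other scalings and filters, a replicate block and each library left out. Chi-square values between replicates were 2.82 to 7.27 per degree of freedom, so no library was a copy of another.

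The members and gene lists were chosen with earlier results of these data known. All 9 members are named; of the 56 listed genes, those past the threshold with a log2 change of at least 1 in size and no overlap between groups are named, plus CDK1, CDKN1A, CDKN1B, CDKN1C, FBXW7 and RB1. The 3 genes nearest in pattern to CCNE2 and to CCNA2 were taken by Pearson correlation, and 1 of them is not reported here. Promoter sequences are from RefSeq.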

Additional observations from a re-analysis of the deposited data

How the results depend on the processing

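Under DESeq2, other scalings, no filter, the replicate block and each library left out, 8 members were lower and 0 higher; a minimum of 10 counts in every library removed CCNE2 and CCNA2 and left 6 of 7 lower. CCNE1 passed the threshold under none of these 12 alternatives, with log2 fold changes from −0.75 to −0.27 (adjusted P 0.103 to 0.661). Of 206 values for the main comparisons 201 kept their direction, their call and, for counts and untested values, their size within the limits set; 4 moved in size and 1 changed sign. With 0.5 added to each count the log2 CCNE2:CCNE1 difference was −4.68 in place of −5.25 (−5.43 to −5.01 with each library left out). The CDC25 to WEE1 and PKMYT1 difference ranged from −0.14 to 0.04 with each library left out and was 0.0362 without DMSO replicate 1, a change of sign, and the cause was not tested. In the list around CDK2, leaving out libraries gave 3 to 6 higher genes and medians from −0.62 to −0.51; the 3 came without DMSO replicate 3, when CDK7, CHEK2 and E2F3 and, among lower genes, RBL1 and YWHAQ lost their calls (adjusted P = 0.0576, 0.0581, 0.0576, 0.0925 and 0.0538). DESeq2 gave 4 higher and 26 lower in that list, losing CDK7, CHEK2, SKP2 and NPAT (adjusted P = 0.0512, 0.0984, 0.0938 and 0.0784). Of the 34 called genes 26 lost their call under none of the alternatives that tested them; YWHAE lost it under 4. Over all genes, 1354 were higher and 1442 lower by the reported test, 1069 and 1165 by DESeq2.

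No pairing by replicate number showed: same-numbered libraries had correlations of deviations of −0.043, 0.0070 and −0.089. Differently numbered ones ran from −0.055 to 0.096. Such correlations over a few libraries cannot exclude a pairing. With the replicate block, 1139 genes were higher and 1280 lower, and the members' calls were 8 lower. Leaving out a library left 1 group with 2 libraries. Depth limits CCNE2 and CCNA2, whose treated values rest on 1 to 6 counts per library.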
